A study of Mus musculus with 31 samples.

Results

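The 10 genes described here are the immediate early genes Fos, Fosb, Fosl1, Jun, Junb, Egr1, Egr2, Egr3, Ier2 and Dusp1, taken by gene name from the 46072 genes listed for each library. They were measured by mRNA sequencing in tumors of RM9, a mouse prostate cancer cell line, and of MC38, a mouse colon cancer cell line. Each line was grown under the skin of the right hind leg of wild-type male C57BL/6J mice, bought at 6 to 7 weeks of age, and tumors of about 8 mm were irradiated locally with a single dose of 15 Gy (radiation therapy, RT). Tumor tissue was taken 3, 12 or 24 h later, each of the 31 libraries coming from 1 mouse. The RM9 Control, RT 3h and RT 12h groups held 4 mice each and the RM9 RT 24h group 3, and every MC38 group held 4. Control tumors received no radiation and carried the 3 h time point, so the same Control mice stood against all RT times, and no untreated tumor of the later times stood beside RT 12h and RT 24h. Each model rests on 1 cell line, and the tissue also holds cells of the host mouse.

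Immediate early genes are transcribed within minutes of a growth factor, cytokine, DNA damage or stress signal, without new protein synthesis, mostly through MAP kinases that act on transcription factors already bound at their promoters. FOS and JUN proteins pair to form the AP-1 transcription factor, EGR proteins are zinc finger transcription factors, and DUSP1 is a phosphatase that switches MAP kinases off again. Their mRNAs are short-lived, and in tumors they follow both growth signalling in the cancer cells and activation of stromal and immune cells.

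Start region sequence is shown for Fos and Egr2, called in MC38 at 3 h and at 24 h, because serum response factor, which binds the CArG box, and the TATA box are classic elements of this gene class. RefSeq windows of 250 bases before the start site (GRCm38.p6) were used for 6 of the 10 genes, Fos, Fosb, Jun, Junb, Egr2 and Dusp1, and start regions of Fosl1, Egr1, Egr3 and Ier2 were not used here. Both strands were searched for the CArG box and the NF-kB site, each by name, the TATA box (TATAAA), the cAMP response element (TGACGTCA or TGACGTAA), the AP-1 site (TGAGTCA or TGACTCA) and the EGR site (GCGTGGGCG). Capitals mark the matches, and no 2 motifs overlapped in the sequences printed. The first line holds the whole window of Fos, at chr12:85473640-85473889 on the plus strand. The second holds the CArG box of Egr2 with 10 bases on either side in the window that ends at base 67537868 of chromosome 10, at chr10:67537787-67537816 on the plus strand.
Fos: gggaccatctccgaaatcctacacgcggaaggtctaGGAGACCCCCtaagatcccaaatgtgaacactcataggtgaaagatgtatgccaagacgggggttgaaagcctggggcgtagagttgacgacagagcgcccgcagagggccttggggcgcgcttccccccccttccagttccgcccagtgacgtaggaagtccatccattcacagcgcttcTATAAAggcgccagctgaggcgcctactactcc
Egr2: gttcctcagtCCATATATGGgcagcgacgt

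The Fos window held an NF-kB site 214 bases and a TATA box 33 bases before the start site. It held no CArG box, but bases more than 250 before the start site were not searched, so one further upstream would be missed. The CArG box of Egr2 printed above lay 72 bases before the start of that window's transcript. Of the 5 Egr2 windows, which belong to different start sites and partly overlap, 4 held a CArG box and the other an NF-kB site. The windows that start at bases 67537619, 67537620 and 67537680 held the same box, the one printed above, so the boxes are fewer than the windows. A CArG box was found in 1.47% of 32851 windows searched. Dusp1 held a cAMP response element 143 bases before its start, found in 1.98% of windows, and Fosb an NF-kB site, found in 5.00%. The TATA box was found in 12.4% of windows, the AP-1 site in 4.46% and the EGR site in 0.536%. No searched letters were found in the windows of Jun and Junb. These matches describe the letters of the windows, and binding was not measured.

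The libraries held 21.4 to 29.4 M reads, and levels are given in TPM, which is per transcript length and relative to all transcripts of a library. Mitochondrially encoded genes took 47.3% to 57.2% of the TPM in RM9 libraries and 22.5% to 40.6% in MC38 libraries, and the TPM of every other gene is relative to a total that includes them. The median log2 fold change of all tested genes was 0.06, -0.19 and -0.04 at 3, 12 and 24 h in RM9 and 0.19, 0.33 and 0.22 in MC38. The called changes of the 10 genes, those with an adjusted p under 0.05, are therefore each followed by the value after median-ratio scaling, which sets the typical gene to the same level in every library. 1 TPM stood for 27.8 to 36.1 reads per kb of transcript in RM9 and 16.5 to 25.9 in MC38, so values under 1 TPM rest on few reads. The labels call both tumors adenocarcinoma. The epithelial markers Krt8, Krt18, Epcam and Cdh1 summed to 610 to 1394 TPM in RM9, and to 0.424 to 1.56 TPM in MC38, where none of the 4 reached 1 TPM in any library. Skeletal muscle markers, of the leg under the tumor, ranged from 3.40 to 2349 TPM in RM9 and from 6.44 to 11410.5 TPM in MC38, with the highest sums of their groups in Control mouse 1 and RT 24h mouse 1 of MC38. Since whole tissue was sequenced, fewer cells of a type and less RNA per cell cannot be told apart.

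In the coordinates of the deposited values (GRCm38), Fos lies on chromosome 12 from 85473890 to 85477273, Fosb on 7 from 19302721 to 19310045, Fosl1 on 19 from 5447703 to 5455945, Jun on 4 from 95049034 to 95052222 and Junb on 8 from 84976909 to 84978748. Egr2 lies on chromosome 10 from 67535475 to 67542188, Egr3 on 14 from 70077445 to 70080157, Ier2 on 8 from 84661331 to 84662852, and Dusp1 on 17 from 26505590 to 26508519. All values are of whole genes.

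**Figure D1:**
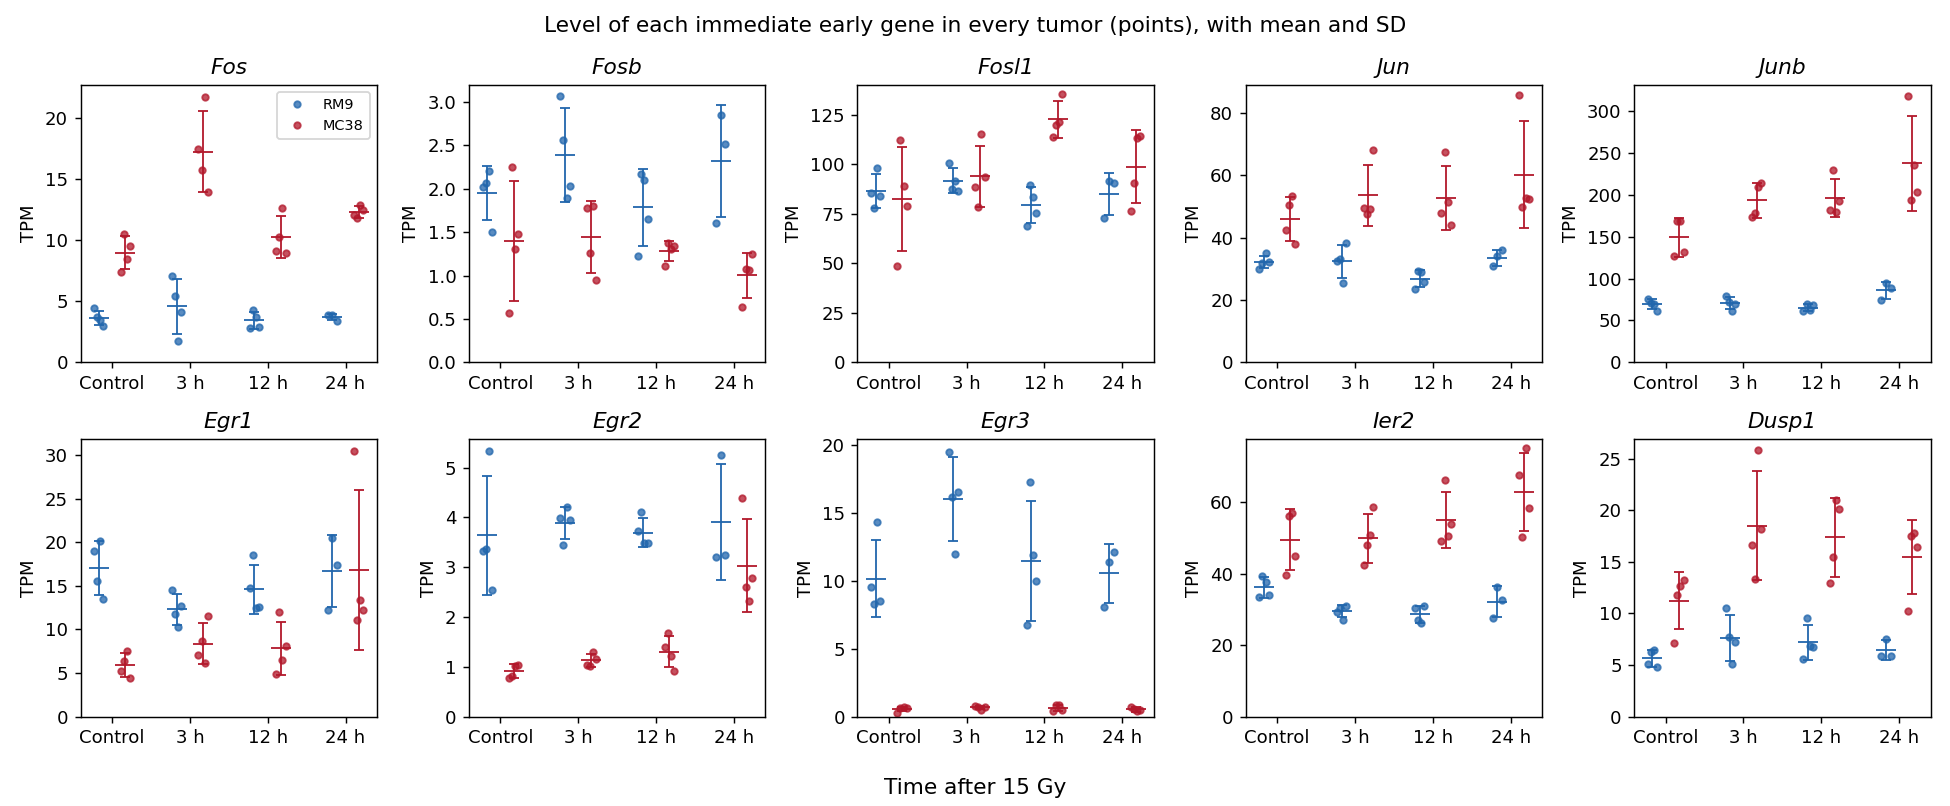
Level of each gene in TPM (vertical axis, from 0, its own scale per gene) in Control tumors and at 3, 12 and 24 h after 15 Gy, in RM9 (blue) and MC38 (red). Points are mice, the horizontal bar is the mean and the whiskers the SD. MC38 Fos at 3 h and MC38 Egr1 and Egr2 at 24 h stand above every MC38 Control mouse, and Egr3 is under 1 TPM in all MC38 tumors.

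In tumors without irradiation, Fos, Junb, Dusp1, Jun and Ier2 were higher in MC38 than in RM9 Control tumors, and Egr1, Egr2 and Egr3 were lower (limma on log2(TPM + 0.5), Benjamini-Hochberg adjusted over all genes). Any difference in handling or sequencing between the RM9 and the MC38 libraries cannot be told apart here from the tumor line. These 8 of 10 genes stand against 75.4% of all 15358 genes called in this comparison, 9943 higher and 1641 lower in MC38 (5226 and 4857 with median-ratio scaling), so the count itself is near the background.

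Egr3, a target and partner of the other EGR factors, measured 9.54, 8.27, 14.3 and 8.48 TPM in the 4 RM9 Control tumors and 0.297, 0.618, 0.685 and 0.614 TPM in the 4 MC38 Control tumors. Every RM9 tumor lay above every MC38 tumor, by 18.3-fold of the means, 10.1 ± 2.82 against 0.554 ± 0.174 TPM (SD, n = 4 each, log2 fold change of MC38 against RM9 -3.32, SE 0.22, adjusted p = 2.71e-13). Egr2, known for its role in myelin and in lymphocyte tolerance, was 3.98-fold lower in MC38 (-1.51, SE 0.18, adjusted p = 2.49e-08), and Egr1, the family's most widely expressed member, 2.89-fold lower (-1.46, SE 0.26, adjusted p = 1.68e-05). With median-ratio scaling these 3 differences were -3.86, -2.04 and -2.10, each past the threshold.

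Fos, the AP-1 subunit that gives the family its name, measured 3.02 to 4.42 TPM in RM9 and 7.40 to 10.5 TPM in MC38 Control tumors, with no overlap (log2 fold change 1.19, SE 0.23, adjusted p = 3.72e-05). Junb, an AP-1 subunit that can restrain JUN, measured 61.2 to 75.5 TPM in RM9 and 127 to 169 TPM in MC38 (1.09, SE 0.13, adjusted p = 3.16e-08). Under median-ratio scaling the differences of Fos and Junb were 0.57 and 0.42 and stayed past the threshold. Those of Dusp1 (0.90 on deposited TPM, adjusted p = 0.000749) and Jun and Ier2 (0.50 and 0.43) were lost, at 0.27, -0.16 and -0.23, with the sign of Jun and Ier2 turned. Fosb and Fosl1, further FOS family members, did not pass on deposited TPM and passed as lower in MC38 with median-ratio scaling, at -0.97 and -0.80.

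Within the RM9 Control tumors the order of mean levels was Fosl1 (86.5 TPM), Junb (69.5), Ier2 (36.2), Jun (32.2), Egr1 (17.1), Egr3 (10.1), Dusp1 (5.65), Fos (3.66), Egr2 (3.64) and Fosb (1.95). The ranges over mice overlapped between Ier2 and Jun, between Egr1 and Egr3 and between Fos and Egr2, and not between the other neighbours. Within the MC38 Control tumors it was Junb (149 TPM), Fosl1 (82.3), Ier2 (49.6), Jun (46.1), Dusp1 (11.2), Fos (8.97), Egr1 (5.91), Fosb (1.40), Egr2 (0.916) and Egr3 (0.554). There the ranges separated only Junb from Fosl1, Jun from Dusp1, Egr1 from Fosb and Egr2 from Egr3.

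In MC38 tumors, Fos rose at 3 h, Fosl1 at 12 h, and Egr1, Egr2 and Junb at 24 h, each against the same Control mice. That is 1, 1 and 3 of the 10 genes, all higher. The shares of all 15698 genes called were 0.0637% at 3 h, 31.1% at 12 h and 13.8% at 24 h. At 3 h 8 genes were called higher and 2 lower on deposited TPM, and 43 higher and 56 lower with median-ratio scaling. At 12 h 4469 genes were called higher and 406 lower on deposited TPM, and 984 higher and 1576 lower with that scaling, and at 24 h 2073 higher and 86 lower became 1220 and 1289. The median log2 fold change of the 10 genes was 0.23, 0.26 and 0.40 at the 3 times, beside 0.19, 0.33 and 0.22 over all genes, and 0.07, -0.02 and 0.14 with median-ratio scaling. The RT and Control mice did not overlap for Fos, Junb and Dusp1 at 3 h, for Fosl1 and Junb at 12 h, and for Fos, Junb, Egr1 and Egr2 at 24 h, each above Control, beside 8.18%, 36.5% and 15.7% of all genes in either direction.

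Fos measured 7.40, 10.5, 8.42 and 9.53 TPM in the MC38 Control tumors and 17.5, 15.7, 21.7 and 13.96 TPM 3 h after RT. All 4 irradiated tumors lay above all 4 Control tumors, and the means, 17.2 ± 3.30 against 8.97 ± 1.34 TPM (SD, n = 4 each), differed 1.92-fold (log2 fold change 0.90, SE 0.15, adjusted p = 0.0366). With median-ratio scaling the log2 fold change was 0.69 and the adjusted p 0.0504, just over the threshold, and dropping any of 5 single mice (Control 1 or 4, RT 3h 1, 2 or 3) also lost the call, at an adjusted p of 0.0618 to 0.113. At 12 h Fos measured 8.98 to 12.7 TPM, within or just above the Control range. At 24 h it measured 11.8 to 12.9 TPM, above every Control mouse and below every mouse of 3 h, without passing the threshold (0.45, SE 0.15, adjusted p = 0.056).

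Fosb, the low-level FOS paralogue, measured 0.565 to 2.25 TPM in Control and 0.639 to 1.80 TPM in the 12 irradiated MC38 tumors, and no time passed the threshold. Fosl1, which encodes FRA-1, the FOS protein most tied to tumor invasion, measured 48.8, 112, 89.2 and 79.0 TPM in Control and 114, 120, 121 and 136 TPM at 12 h. The groups did not overlap, but 112 TPM in Control mouse 2 came close to the lowest irradiated tumor (0.63, SE 0.20, adjusted p = 0.032). The value was 0.28 with median-ratio scaling (adjusted p = 0.152) and 0.40 without Control mouse 1, the library richest in muscle markers (adjusted p = 0.0973). At 3 and 24 h Fosl1 overlapped the Controls, at 78.6 to 115 and 76.6 to 114 TPM.

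Of the JUN genes, Junb, the most abundant of the 10 in MC38, measured 127, 169, 169 and 132 TPM in Control and 318, 193, 235 and 203 TPM at 24 h. All irradiated tumors were above all Controls, with mouse 1 the highest (0.65, SE 0.15, adjusted p = 0.0115). It was above all Controls at 3 h (173 to 214 TPM) and 12 h (179 to 229 TPM) as well, without passing there (adjusted p = 0.2 and 0.0541). With median-ratio scaling the 24 h value was 0.39 and did not pass (adjusted p = 0.113). Jun, which encodes the central JUN subunit and overlaps the antisense gene Junos over 689 bases, measured 38.0 to 53.2 TPM in Control and 85.8, 49.9, 52.6 and 52.4 TPM at 24 h. Only mouse 1 stood above the Control range, and Jun passed at no time. The counting was not stated to use strand, so reads of Jun and of Junos (1.97 to 13.1 TPM) may be mixed.

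The EGR genes Egr1 and Egr2 had the highest log2 fold changes of the 10 genes, 24 h after RT. Egr2 measured 0.785, 0.808, 1.02 and 1.05 TPM in the MC38 Control tumors and 4.40, 2.61, 2.32 and 2.78 TPM at 24 h. All 4 irradiated tumors were above all Controls, 3.31-fold by the means of 3.03 ± 0.932 and 0.916 ± 0.138 TPM (SD, n = 4 each, log2 fold change 1.29, SE 0.18, adjusted p = 0.000731). The Controls of Egr2 lie near 1 TPM and so rest on few reads. Egr1 measured 5.24, 6.37, 7.57 and 4.45 TPM in Control and 30.5, 11.1, 13.3 and 12.2 TPM at 24 h. It too was above every Control in every irradiated tumor, 2.84-fold by the means of 16.8 ± 9.19 and 5.91 ± 1.36 TPM, with mouse 1 far above the other 3 (1.33, SE 0.31, adjusted p = 0.0115).

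With median-ratio scaling, Egr2 was at 1.10 (adjusted p = 0.00189) and Egr1 at 1.09 (adjusted p = 0.0324), so both calls remained. Without RT 24h mouse 1 and Control mouse 1, the libraries of their groups richest in muscle markers, Egr2 was at 1.07 (adjusted p = 0.00294) and Egr1 at 0.97 (adjusted p = 0.0435). The 7 neutrophil markers summed to 42.1 to 150 TPM at 24 h and 24.1 to 35.0 TPM in the Controls, with Ly6g at 0 in all of them. The highest sum, in mouse 1, held 125 TPM of Mmp9, and without Mmp9 the other 6 markers summed to 24.9 TPM there, within the 20.4 to 36.8 TPM of the other 3 mice and the 11.3 to 25.1 TPM of the Controls. Of 6 neutrophil markers tested only Mmp9 was called higher, and none with scaling.

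The 5 endothelial markers summed to 56.7 to 75.5 TPM at 24 h, highest in mouse 1, and 41.1 to 55.9 TPM in the Controls, with 2 called higher and none with scaling. The 7 macrophage markers summed to 651 to 812 TPM at 24 h, below every Control (814 to 1306 TPM), with 1 called lower, Csf1r, and 4 with scaling. The part of these cell types in the Egr1 and Egr2 values was not tested.

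At 3 and 12 h Egr1 measured 6.18 to 11.6 and 4.85 to 12.0 TPM and Egr2 1.01 to 1.30 and 0.923 to 1.68 TPM, overlapping the Controls. Egr3 stayed between 0.297 and 0.865 TPM in all 16 MC38 tumors and passed at no time. In the same 24 h tumors, Egr1 and Egr2 were above every Control and Egr3 (0.387 to 0.733 TPM) was not.

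Ier2, a small nuclear protein gene of the fast response, measured 39.8 to 57.1 TPM in MC38 Control tumors and 42.4 to 75.2 TPM in the irradiated ones, and passed at no time (at 24 h 0.34, SE 0.15, adjusted p = 0.144). Dusp1, the phosphatase that ends MAP kinase signals, measured 7.15, 11.8, 12.7 and 13.2 TPM in Control and 16.6, 13.4, 25.8 and 18.1 TPM at 3 h. These groups did not overlap, yet the change did not pass the threshold at 3 h (0.69, SE 0.24, adjusted p = 0.17) or 12 h (0.62, SE 0.24, adjusted p = 0.0578).

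**Figure D2:**
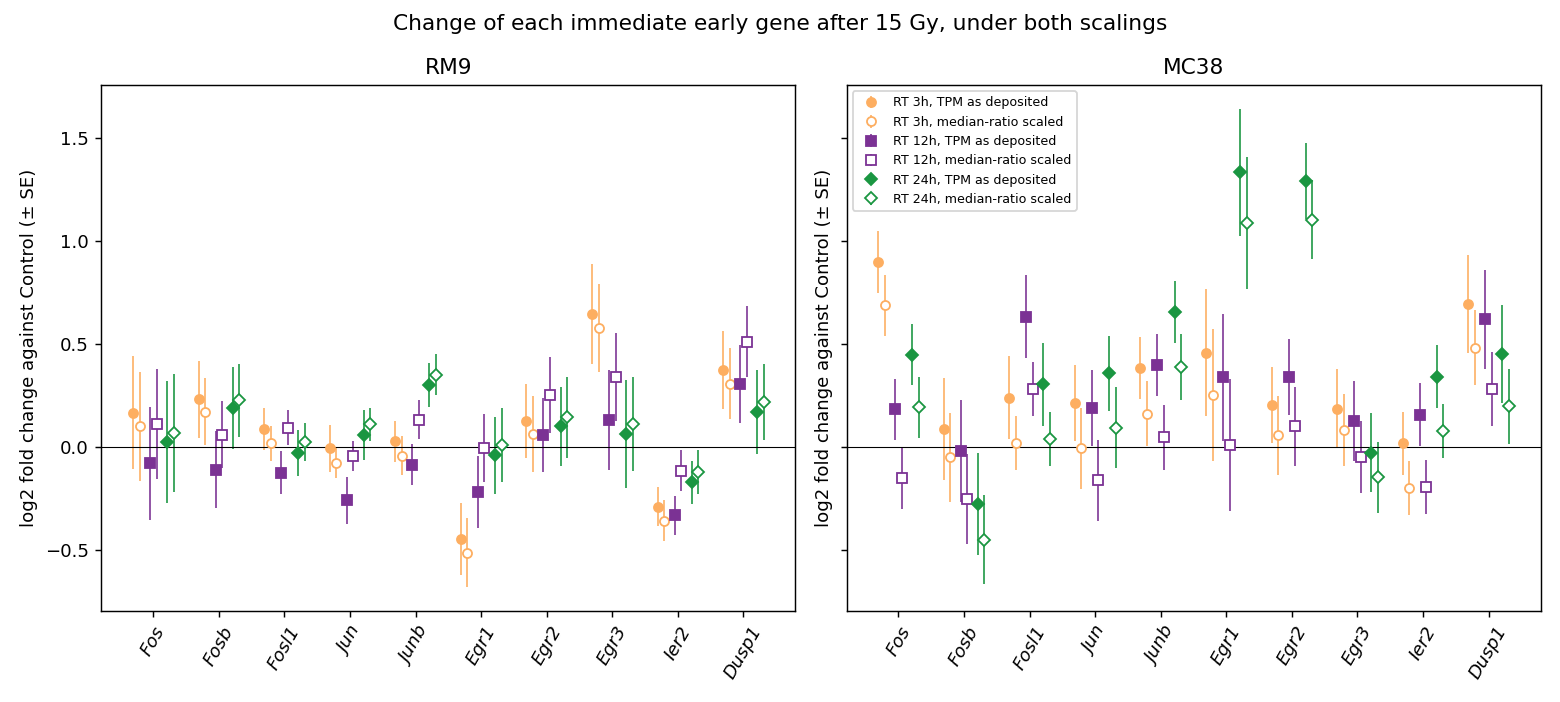
Log2 fold change of each gene against Control of the same tumor (vertical axis) at RT 3h, 12h and 24h, for RM9 (left) and MC38 (right), with the limma standard error as whiskers. Filled symbols use TPM as deposited and open symbols median-ratio scaled values. Egr1 and Egr2 at 24 h in MC38 lie above 1 under both scalings, and at 12 h the filled and open symbols lie apart in opposite directions in RM9 and MC38.

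In RM9 tumors only Ier2 passed the threshold, at 12 h and downward, and none passed at 3 or 24 h with limma. There 3 and 1 of the 10 had an unadjusted p under 0.05, and at 3 h 3060 of all 14013 genes did. The shares of all 14013 genes called were 0.228% at 3 h (28 higher and 4 lower, and 237 and 169 with median-ratio scaling), 8.37% at 12 h (10 higher and 1163 lower, and 10 and 6 scaled) and 0% at 24 h, where 681 genes had an unadjusted p under 0.05. The median log2 fold change of the 10 genes was 0.11, -0.10 and 0.06, beside 0.06, -0.19 and -0.04 over all genes, and 0.04, 0.10 and 0.11 with scaling. Without overlap between RT and Control were Ier2 at 3 h and Jun and Ier2 at 12 h, all below Control, and no gene at 24 h, beside 12.8%, 19.7% and 4.25% of all genes in either direction.

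Ier2 measured 33.6, 39.5, 37.8 and 33.9 TPM in the RM9 Control tumors, 29.4, 30.4, 27.2 and 30.9 TPM at 3 h and 30.5, 27.1, 26.1 and 30.9 TPM at 12 h. Every tumor of both times lay below every Control (at 12 h -0.33, SE 0.10, adjusted p = 0.0471, and at 3 h -0.29, SE 0.10, adjusted p = 0.133). At 12 h the median-ratio scaled value was -0.12 (adjusted p = 0.62), and dropping any single one of the 8 mice lost the call (adjusted p 0.0673 to 0.111). At 3 h the scaled value was -0.36 (adjusted p = 0.0621). With Dunnett's comparisons on TPM, the test the study used, which was not adjusted over genes here, Ier2 passed at both 3 and 12 h. At 24 h it measured 27.6 to 36.2 TPM and overlapped the Controls.

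Egr3 measured 9.54, 8.27, 14.3 and 8.48 TPM in Control and 19.4, 16.1, 12.0 and 16.5 TPM at 3 h, where only mouse 3 fell within the Control range (0.65, SE 0.24, adjusted p = 0.16). Egr1 measured 13.5 to 20.2 TPM in Control and 14.5, 11.8, 10.3 and 12.7 TPM at 3 h (-0.45, SE 0.17, adjusted p = 0.168). Both overlapped their Controls, and neither passed the threshold. Egr2 overlapped the Controls at all times, at 2.54 to 5.34 TPM over all 15 tumors.

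Of the AP-1 genes in RM9, Fos measured 4.42, 3.69, 3.50 and 3.02 TPM in Control and 7.09, 5.43, 1.72 and 4.09 TPM at 3 h. The 3 h tumors held both the highest and the lowest RM9 value of Fos, and RT 3h mouse 3 was the lowest of its group in 8 of the 10 genes. Junb measured 61.2 to 75.5 TPM in Control and 74.2, 94.6 and 88.5 TPM in the 3 tumors of 24 h (0.30, SE 0.11, adjusted p = 0.998). It passed only with Dunnett's comparisons on TPM, which were not adjusted over genes. Jun at 12 h, at 23.6 to 29.2 TPM, lay below its Controls of 30.1 to 34.9 TPM (-0.26, SE 0.11, adjusted p = 0.133), and with median-ratio scaling at -0.04. Fosb, Fosl1 and Dusp1 passed at no time, at 1.22 to 3.07, 68.9 to 101 and 4.81 to 10.5 TPM over all RM9 tumors.

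Whether the models changed differently was tested as the change in MC38 minus that in RM9, in 1 fit of all 31 libraries. At 3 h none of the 10 genes and 0% of all 15358 genes passed with limma, where 1519 genes had an unadjusted p under 0.05. The 1.92-fold rise of Fos in MC38 at 3 h is thus not shown to differ from its change in RM9 (difference 0.73, SE 0.32, adjusted p = 0.475). At 12 h Fosl1, Ier2 and Junb passed (differences 0.76, 0.49 and 0.49, adjusted p 0.0146, 0.0335 and 0.0355), where 45.4% of all genes did (6903 higher and 72 lower in MC38), the median gene at 0.50. With median-ratio scaling, which called 234 higher and 233 lower, these were 0.21, -0.05 and -0.06, none past the threshold.

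At 24 h Egr2 passed, beside 1.81% of all genes (278 higher and 0 lower, and 191 and 42 scaled), with a difference of 1.19 (SE 0.26, adjusted p = 0.02). Egr1 came close, at 1.37 (SE 0.39, adjusted p = 0.0568). With median-ratio scaling Egr2 was at 0.91 (adjusted p = 0.0854) and Egr1 at 1.11 (adjusted p = 0.142). The Egr2 call was also lost without RM9 RT 24h mouse 1 (1.08, adjusted p = 0.083) or mouse 3 (1.09, adjusted p = 0.0559). The 24 h levels of Egr1 in MC38, 11.1 to 30.5 TPM, overlapped the levels that RM9 tumors held at all times, 10.3 to 20.5 TPM. Those of Egr2, 2.32 to 4.40 TPM, lay within or just below the RM9 range of 2.54 to 5.34 TPM. Both statements hold for deposited TPM only. Median-ratio scaling over both tumors divides TPM by 0.575 to 0.840 in RM9 libraries and by 1.25 to 1.48 in MC38 RT 24h libraries. It thus lowers these MC38 levels against those of RM9, and the overlap of the scaled levels was not computed.

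**Figure D3:**
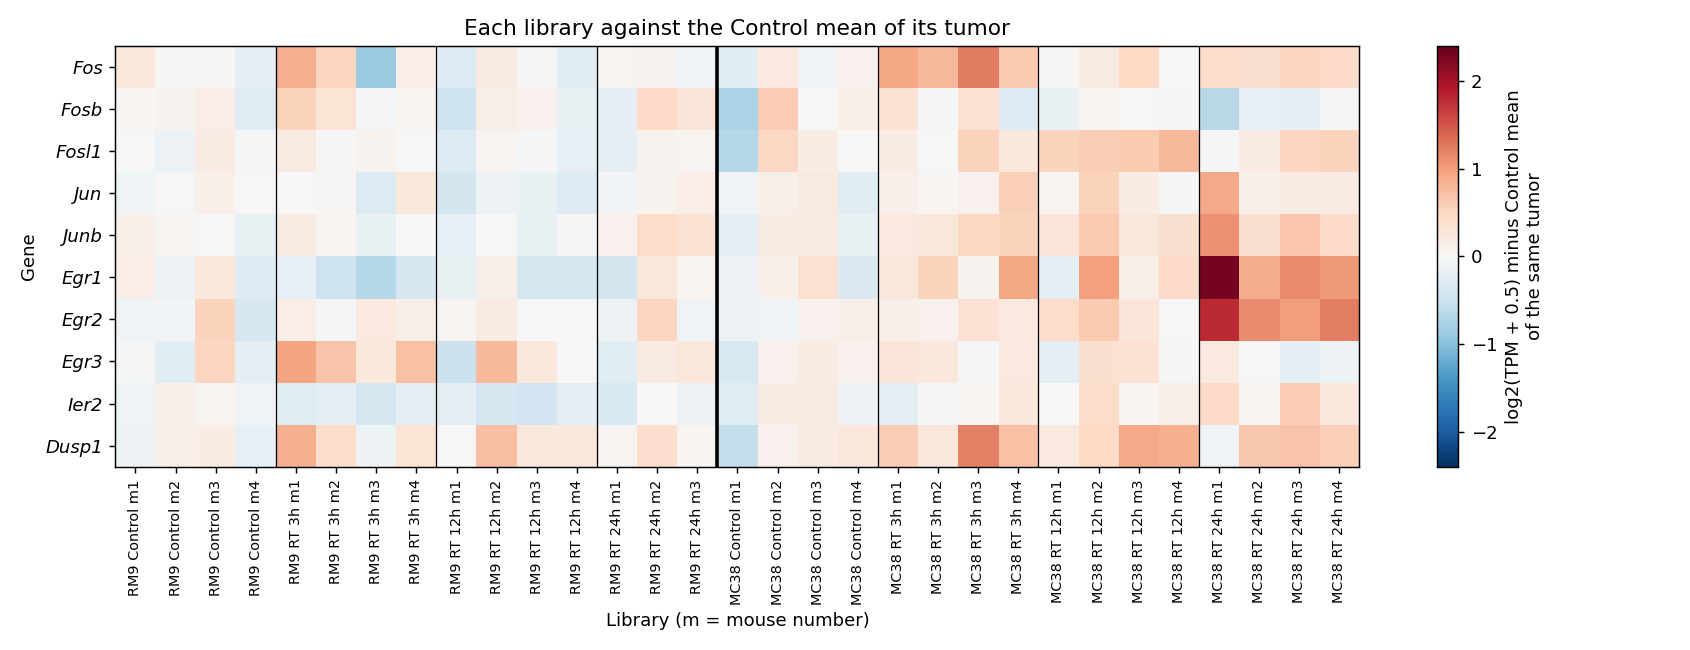
Log2(TPM + 0.5) of each gene (rows) in each of the 31 libraries (columns, m is the mouse number) minus the Control mean of the same tumor, red above and blue below it. Thin lines separate groups and the thick line separates RM9 from MC38. The 4 columns of MC38 RT 24h are red for Egr1 and Egr2, most of all Egr1 in mouse 1 at 2.30, and the lowest cell is Fos in RM9 RT 3h mouse 3 at -0.89.

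The genes varied between mice of the same group, in RM9 mostly together. After subtracting group means, 44 of the 45 pairs of the 10 genes had a positive Pearson correlation over the 15 RM9 libraries, with a median of 0.53 and the highest between Fosl1 and Egr3 (0.87). RM9 RT 12h mouse 2 was the highest of its group in 9 of the 10 genes and RT 24h mouse 2 in 8. In MC38, where Egr3 was left out for its low level, 23 of 36 pairs were positive over 16 libraries, with a median of 0.20. There Jun, Junb and Egr1 went together (0.86 between Jun and Junb, 0.88 between Jun and Egr1), with RT 24h mouse 1 highest in all 3. These are descriptions over few libraries that share depth and scaling. The values were deposited TPM, so a shift common to a whole library was not separated. Correlations over all gene pairs were not computed, so the counts of positive pairs stand without a background.

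Chosen by the highest mean correlation, the genes outside the set whose levels followed it most closely were, in RM9, Gm7353, Pnrc1, Zc3h3, Arrdc3 and Gm11814, with a mean correlation with the 10 genes of 0.69 each over 15 libraries, out of 12695 genes. In MC38 they were Rap2a, Snord69, Ywhaz, Tkt and Zyx, at 0.53 to 0.54 with 9 genes over 16 libraries, out of 14235. None was named in both tumors.

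Other genes of the pathway were read from 8 lists. At 3 h none of the genes on any list passed in either tumor with limma. In MC38 at 24 h the genes called higher were 6 of 16 MAP kinase phosphatases and Sprouty or Spred feedback genes, 4 of 12 other AP-1 genes, 5 of 12 genes known as AP-1 targets, 4 of 20 other fast response genes, 3 of 8 SRF and EGR partner genes, 2 of 6 factors that bind AU-rich mRNAs, 2 of 14 MAP kinases and 1 of 5 EGFR ligands. Over all genes 13.2% were called higher. With median-ratio scaling, where 7.77% of all genes were higher, these counts were 1, 3, 3, 2, 1, 0, 0 and 1. The genes called lower were 1 of the other fast response genes, and with scaling 2 of these and 1 other AP-1 gene. In RM9 at 24 h no list gene was called. There 6 of 11 AP-1 targets had an unadjusted limma p under 0.05, beside 681 of all 14013 genes and at most 1 gene on each other list. The median log2 fold change of the AP-1 targets was 0.51 there (0.56 scaled) and 0.61 in MC38 at 24 h (0.35 scaled).

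Of the feedback genes in MC38 at 24 h, Dusp5, a nuclear ERK phosphatase, measured 5.34 to 6.43 TPM in Control and 10.6 to 17.3 TPM after RT (log2 fold change 1.15, SE 0.15, adjusted p = 0.000397). Dusp6, a cytoplasmic ERK phosphatase, measured 24.5 to 38.9 and 52.7 to 112 TPM (1.07, SE 0.26, adjusted p = 0.0146), and Spry4, an inhibitor of receptor signalling, rose by 0.77. With median-ratio scaling Dusp5 stayed past the threshold at 0.90, while Dusp6 and Spry4, at 0.81 and 0.55, did not (adjusted p 0.0527 and 0.0808). Hbegf, a ligand of the EGF receptor that signals to ERK, measured 9.01 to 15.1 TPM in Control and 18.5 to 28.6 TPM at 24 h, without overlap (0.99, SE 0.17, adjusted p = 0.00236, and 0.73 scaled).

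Of the other fast response genes, Csrnp1, a nuclear protein gene, measured 5.93 to 8.84 TPM in Control and 14.9 to 21.2 TPM at 24 h (1.08, SE 0.14, adjusted p = 0.000338), and Ier5 rose by 0.63. Klf2, a factor that keeps endothelium and T cells quiescent, fell, measuring 24.8 to 27.2 TPM in Control and 12.0 to 21.9 TPM at 24 h (-0.76, SE 0.18, adjusted p = 0.0125). The 6 T cell markers summed to 19.2 to 28.6 TPM in these Controls and to 9.11 to 18.3 TPM at 24 h. The 5 endothelial markers went the other way, at 41.1 to 55.9 TPM in these Controls and 56.7 to 75.5 TPM at 24 h. The part of either cell type in the Klf2 value was not tested. With median-ratio scaling Csrnp1, Ier5 and Klf2 were at 0.83, 0.37 and -1.02, all past the threshold.

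Of the other AP-1 genes at 24 h, Batf2, an interferon-responsive partner of JUN proteins, measured 12.2 to 17.5 TPM in Control and 31.1 to 47.4 TPM after RT (1.32, SE 0.15, adjusted p = 0.000287, and 1.06 scaled). Jdp2, a repressor that binds AP-1 sites, rose by 0.64 (0.39 scaled, also past the threshold) and Atf3, a stress factor, by 0.68 (0.43 scaled, adjusted p = 0.0713). Among the AP-1 targets, the cytokine gene Il6 measured 0.932 to 1.66 TPM in Control and 4.03 to 8.82 TPM at 24 h (1.82, SE 0.21, adjusted p = 0.000287, and 1.62 scaled). The collagenase and stromelysin genes Mmp9 (1.70, adjusted p = 0.024) and Mmp10 (1.42, adjusted p = 0.0118) rose as well, and Mmp10 passed with scaling too (1.24, adjusted p = 0.0138). Mmp9 is also on the neutrophil marker list, and at 1.44 with median-ratio scaling it did not pass (adjusted p = 0.06).

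At 12 h in MC38, where 28.5% of all genes were called higher, more genes of these lists were called, and few with median-ratio scaling. The genes called higher were 9 of 14 MAP kinases, 6 of 8 SRF and EGR partner genes, 6 of 12 other AP-1 genes, 6 of 16 feedback genes, 3 of 6 AU-rich mRNA factors, 3 of 12 AP-1 targets and 1 of 20 fast response genes, and no EGFR ligand, with 1 AP-1 target called lower. With median-ratio scaling 1, 1, 1, 0, 1, 0 and 0 of them were higher, with 2 feedback, 2 fast response, 1 MAP kinase and 1 AP-1 target gene called lower. Map2k6, a kinase that activates p38, rose by 0.89 (adjusted p = 0.00842, and 0.56 scaled, also past the threshold). In RM9 at 12 h single genes were called lower, such as Srf (-0.37, and -0.16 scaled), Elk4 (-0.50, and -0.29), Dusp9 (-0.48, and -0.26), Batf (-0.64, and -0.50) and Mmp3 (-0.86, and -0.64), and with median-ratio scaling none of the 8 lists held a called gene there.

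**Figure D4:**
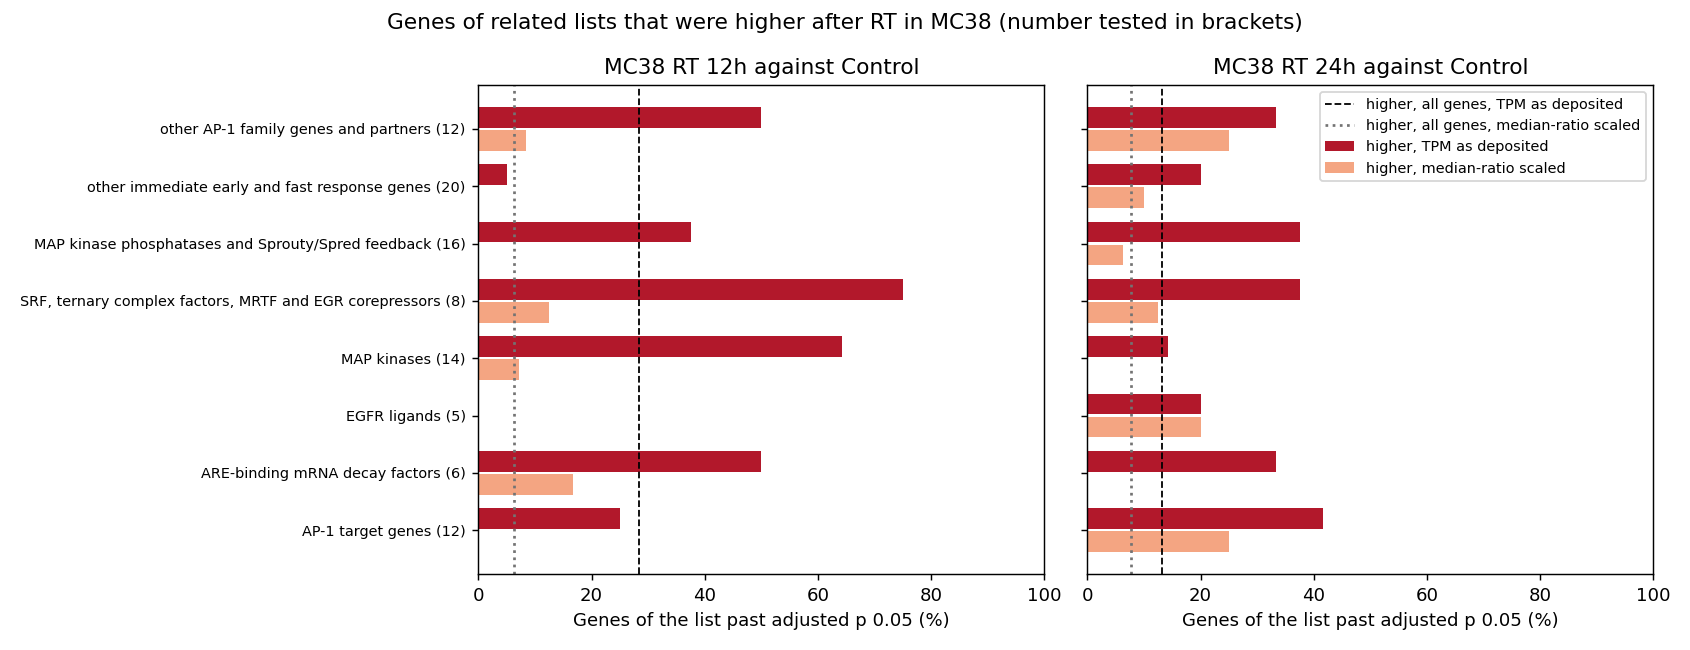
Share of the genes of 8 lists (rows, number tested in brackets) with an adjusted p under 0.05 and a higher level after RT (horizontal axis, percent) in MC38 at 12 h (left) and 24 h (right). Dark bars use TPM as deposited and light bars median-ratio scaled values, and the dashed and dotted lines give the share over all genes under each. At 12 h no light bar stands for more than 1 gene, while at 24 h the light bars of the other AP-1 genes and of the AP-1 targets stand for 3 of 12 genes each.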

How the data were processed

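Tumor mRNA of 31 mice was sequenced single-end from stranded poly-A libraries. The authors deposited, for each library and gene, TPM, FPKM and read coverage. The aligner, the quantification program and its strand setting are not given in the sources used here. The submitters' processing notes name bcl2fastq 2.17 and GRCm39, but the deposited gene coordinates are those of GRCm38: of 45137 genes shared with GENCODE M21, 91.1% had the same start or end. The deposited FPKM and coverage values served only to estimate depth, 21.4 to 29.4 M reads. Rows of genes listed more than once (16 to 36 such rows a library) were summed for each gene, and no libraries were identical.

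log2(TPM + 0.5) of genes with a mean of at least 0.5 TPM, with the 10 genes kept, was fitted with limma 3.58.1 in R 4.3.3 (eBayes with trend), the 4 groups of a tumor sharing the spread, and all 8 groups for comparisons between tumors. P-values were Benjamini-Hochberg adjusted over all genes, with a threshold of 0.05. The study's Dunnett's comparisons on TPM were run as an alternative for single genes, not adjusted over genes (scipy 1.17.1), beside other pseudocounts, filters and scalings, fits of 2 groups, a replicate block and fits without 1 mouse. Of the 10 genes, only those with an unadjusted limma p under 0.05 or a call under either scaling had Dunnett's comparisons. The limma step was tested on simulated data. Python 3.11.15, numpy 2.4.6, pandas 2.3.3 and matplotlib 3.10.9 were used.

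All 10 genes were named, up to 3 genes of each list per comparison with Control (largest log2 fold change among those called), and the 5 genes per tumor of the highest mean correlation with the set. The 10 genes and the lists were chosen with earlier results of these data known. Replicate numbers did not pair the mice.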

Additional observations from a re-analysis of the deposited data

Results flagged for a closer look

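Of 70 sets of values, each of 1 gene in 1 group of 4 mice, 4 held a value far from the other 3, all in MC38. Chance gives about 1 in 20 sets, so 4 of 70 is near the rate of chance. The genes were read in the same mice, so the sets are not independent. In RT 24h mouse 1, Jun was at 85.8 TPM (the others 49.9 to 52.6) and Egr1 at 30.5 TPM (the others 11.1 to 13.3). In RT 3h, Jun of mouse 4 was at 68.1 TPM (the others 47.5 to 49.5) and Egr3 of mouse 3 at 0.512 TPM (the others 0.732 to 0.771).

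Of 30 tests of the change in MC38 minus that in RM9, 4 passed the threshold with limma. These were Fosl1 at 0.76, Junb at 0.49 and Ier2 at 0.49, all at 12 h, and Egr2 at 1.19 at 24 h. None of the 4 passed with median-ratio scaling (adjusted p 0.487, 0.906, 0.908 and 0.0854). Over all genes, 45.4% passed at 12 h and 1.81% at 24 h on deposited TPM. The calls at 12 h thus do not exceed the background share.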

How the results depend on the processing

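Each count is of the 10 genes past the threshold. Dunnett's comparisons were run only for genes with an unadjusted limma p under 0.05 or called under either scaling, not for all 10. In RM9 at 3 h it was 0, and 1 with Dunnett's comparisons on TPM, not adjusted over genes (Ier2). In RM9 at 12 h it was 1, and 0 with median-ratio scaling, TPM rescaled without mitochondrial genes, no filter, eBayes without trend, the replicate block, only the 2 groups in the fit, or any 1 mouse left out (0 to 0). In RM9 at 24 h it was 0, and 1 with Dunnett's comparisons (Junb). In MC38 at 3 h it was 1, and 0 with median-ratio scaling, the replicate block or only 2 groups, and 0 to 1 without 1 mouse. In MC38 at 12 h it was 1, and 0 with median-ratio scaling, no filter or only 2 groups, 3 with a filter of 5 TPM, 2 with the replicate block, and 0 to 3 without 1 mouse. In MC38 at 24 h it was 3, 2 with median-ratio scaling, where Junb was lost, and 4 with a filter of 5 TPM or the replicate block. It was 1 with only 2 groups, where Egr1 (adjusted p = 0.058) and Junb (0.0869, limma) were lost, and 3 to 4 without 1 mouse. The difference between tumors at 12 h counted 3, 0 with median-ratio scaling or without mitochondrial genes, 1 with no filter, and 1 to 3 without 1 mouse. At 24 h it counted 1, 0 with median-ratio scaling, 2 with a filter of 5 TPM, and 0 to 2 without 1 mouse. The MC38 against RM9 Control comparison counted 8 (5 higher and 3 lower), 7 with median-ratio scaling (2 higher and 5 lower), and 8 to 9 without 1 mouse.

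Leaving out MC38 Control mouse 1 and RT 24h mouse 1 together, chosen after seeing the data, gave 0 at 3 h, 0 at 12 h and 0 for the 24 h difference between tumors. With median-ratio scaling 24 of 100 comparisons of the 10 genes changed sign. Among the called ones these were the 12 h differences of Junb (-0.057) and Ier2 (-0.050) and those of Jun (-0.16) and Ier2 (-0.23) between Controls. The Control difference of Fosl1, -0.13, ranged from -0.30 to 0.10 without 1 mouse, and was 0.10 without MC38 Control mouse 1. The cause of these changes was not tested.

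The replicate numbers did not pair the mice: same-numbered mice of different groups deviated with a correlation of -0.39 to 0.32 in RM9 and -0.48 to 0.55 in MC38, over 0.1 in 5 of 21 and 7 of 24 pairs. For differently numbered mice it was -0.45 to 0.56 and -0.60 to 0.60, over 0.1 in 23 of 63 and 28 of 72 pairs. Depth limits Egr3, Fosb and, outside 24 h, Egr2 in MC38, which lie near 1 TPM, and 3 or 4 mice a group limit all tests.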

Other observations

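Of 5 heat shock genes, whose promoters also respond to stress within minutes, 4 were called higher in MC38 tumors at 12 h, and 2 with median-ratio scaling, beside 28.5% and 6.27% of all genes. Hspa1b, an inducible HSP70 gene, measured 3.77 to 6.29 TPM in Control and 10.8 to 28.9 TPM at 12 h (limma log2 fold change 1.47, adjusted p = 0.00677). Hspa1a, its near-identical copy, measured 2.07 to 3.22 and 4.95 to 13.96 TPM (1.30, adjusted p = 0.00823). Since the genes share most of their sequence, reads may be split between them. With median-ratio scaling they were at 1.14 and 0.98, both past the threshold, while Hsph1, at 0.78 on deposited TPM, did not pass at 0.42 (adjusted p = 0.121).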
